A study of Mus musculus with 12 samples.

Results

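A module of 35 genes for ATF4 signalling, amino acid supply and one-carbon supply was followed in mouse pancreatic islets before and during pregnancy, with and without the prolactin receptor. The genes were listed by symbol, and a gene was kept when the array annotation named a probe set (a group of probes summarised together) for that gene alone. This held for 34 of the 35 genes, each with 1 such probe set, among 19938 genes named in this way and 35511 probe sets in all. Pycr1, an enzyme of proline synthesis, had no probe set of its own and was not analysed here.

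Islets were isolated with collagenase from adult mice labelled 129Sv, and 12 arrays were hybridised. The 4 groups were Prlr-/- and Prlr+/+ mice taken on pregnancy day 9.5 (P9.5), non-pregnant (NP) Prlr-/- mice and NP Prlr+/+ mice, with 3 biological replicates each. The null allele was present in every cell of the Prlr-/- animals, not in islets alone. Prlr-/- females are sterile, and per the methods their pregnancies were maintained with a progesterone pellet. At P9.5 genotype and pellet therefore cannot be told apart. In Prlr-/- islets pregnancy and pellet cannot be told apart either, and the interaction of pregnancy and genotype carries the same limit. Below, Prlr-/- pregnancy means pregnancy with the pellet.

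ATF4 is a transcription factor whose translation rises when the initiation factor eIF2 is phosphorylated by stress kinases, among them the sensor of amino acid shortage GCN2 and the sensor of unfolded proteins in the endoplasmic reticulum PERK. Its known targets include amino acid transporters, asparagine synthetase, tRNA synthetases and the enzymes that make serine and pass its carbon to folate, so that protein synthesis is kept supplied. Beta cells carry a heavy load of secretory protein synthesis and depend on this response. ATF4 itself is regulated largely at translation, which an array of mRNA does not measure.

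A value below is a level on the log2 scale after robust multichip analysis (RMA), rounded in the table to 0.1, so that a difference of 1 is a doubling. Levels of different probe sets are not comparable with each other. A call required a change of at least 1.5-fold (0.58 on the log2 scale) and a limma p, adjusted by Benjamini-Hochberg over all probe sets, under 0.05. The annotation used named no probe set for Prlr alone, so the deletion was not checked here. Arrays of 1 stage correlated at 0.972 to 0.988 and arrays of different stages at 0.931 to 0.969. One array went against the rest, since Xist, which female cells transcribe, was at 3.8 in Prlr+/+ P9.5 replicate 2 and at 10 to 10.7 on every other array, while the Y-linked Kdm5d was at 4.1 to 4.6 on all 12. That array and Prlr-/- P9.5 replicate 2 also had the highest mean of 9 immediate early genes (7.08 and 7.19, against 6.09 to 6.5 elsewhere). Without Prlr+/+ P9.5 replicate 2, and without both of these arrays, the numbers of module genes called were the same in all 5 comparisons.

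In Prlr-/- pregnancy the number of calls did not set the module apart from all probe sets. Got1, the cytosolic aspartate aminotransferase that links aspartate and glutamate, was the only one of 34 called higher and 0 were called lower, where 7.44% of all probe sets were called higher and 7.09% lower. Over the 19938 genes with a probe set of this kind, the shares were 7.86% higher and 3.06% lower. The limma p without adjustment was under 0.05 for 7 genes higher and 3 lower (20.2% and 24.8% of all probe sets). At an adjusted p under 0.05 and any fold, 7 were higher and 2 lower (15.6% and 17.7% of all probe sets). All 3 P9.5 arrays lay above all 3 NP arrays for 6 genes and below them for 3 (19.4% and 22.4% of all probe sets). The median log2 fold change of the 34 genes was 0.10, against -0.07 over all probe sets. With each array centred on its median, Atf4, Cebpg, Mthfd1, Mthfd1l and Slc38a2 were called higher as well, while calls over all probe sets were 4835 higher and 1510 lower, against 2641 and 2518 as deposited. Without Prlr-/- P9.5 replicate 1, 3 genes were called higher and 1 lower, without Prlr-/- NP replicate 2, 2 were called lower, and without Prlr-/- NP replicate 3, 1 was.

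Pregnancy in Prlr+/+ islets gave the same call, with Got1 higher and 0 genes lower, where 5.73% of all probe sets were called higher and 4.21% lower, and 5.85% and 2.19% of the 19938 genes. The unadjusted limma p was under 0.05 for 7 genes higher and 10 lower (17% and 18.9% of all probe sets). At an adjusted p under 0.05 and any fold, 5 were higher and 3 lower (11.5% and 10.3% of all probe sets). Arrays of the 2 stages did not overlap for 6 genes above and 4 below (15% and 17.3% of all probe sets). The median log2 fold change was -0.02, against -0.07 over all probe sets. With each array centred on its median, the calls over all probe sets were 2634 higher and 1117 lower, against 2034 and 1494 as deposited. Without Prlr+/+ NP replicate 1, 2 genes of the module were called lower.

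**Figure D1:**
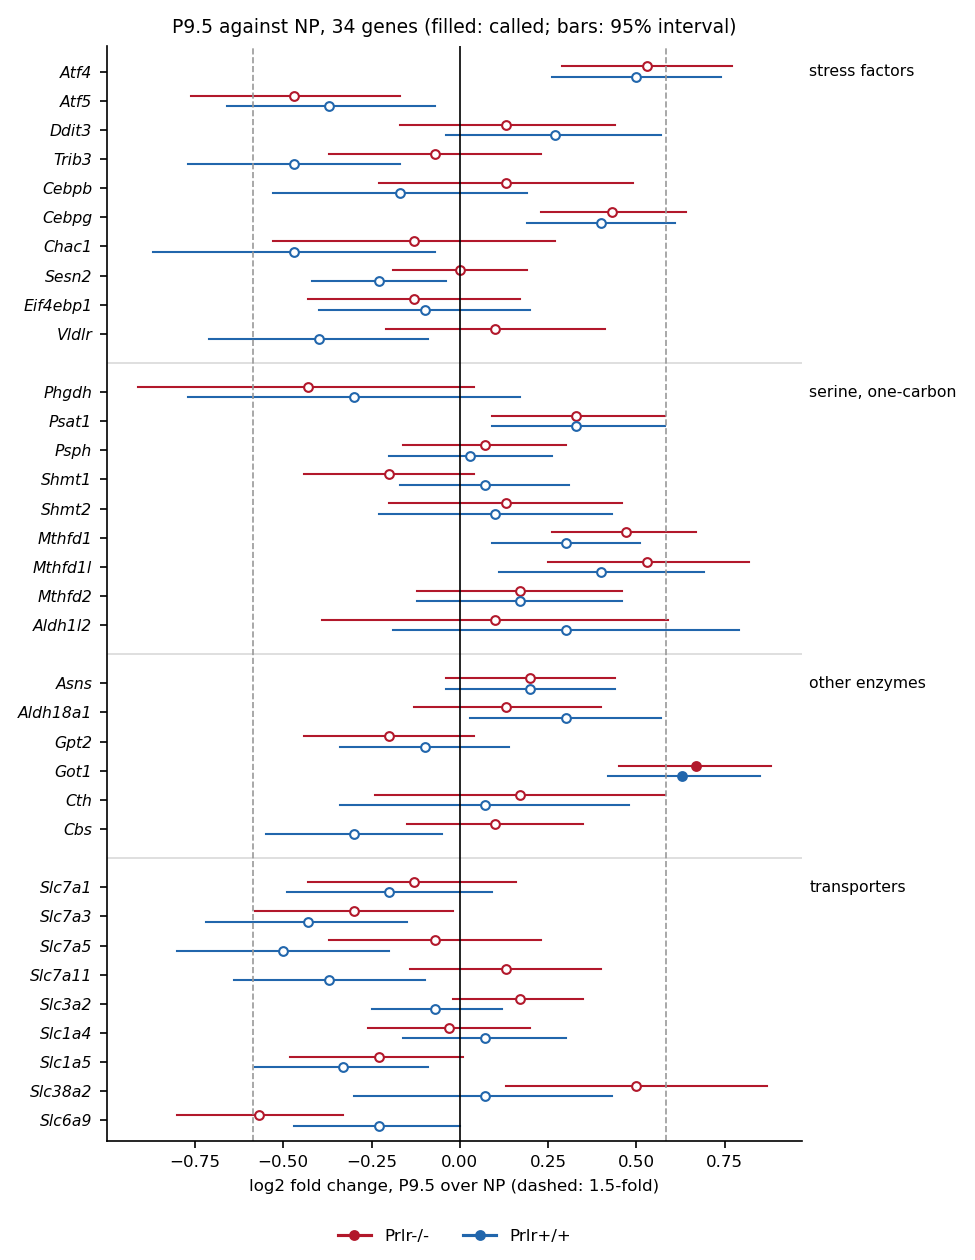
Log2 fold change of P9.5 over NP for the 34 genes by role, in Prlr-/- (red, upper) and Prlr+/+ islets (blue, lower), with 95% intervals of the limma fit as bars and the 1.5-fold limits dashed; filled points were called. Got1 alone is filled, at 0.67 in Prlr-/- and 0.63 in Prlr+/+ islets, and the points of Atf4, Cebpg, Mthfd1 and Mthfd1l lie right of 0 in both genotypes.

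Got1 was at 8.4, 8.2 and 8.3 in Prlr-/- P9.5 islets, against 7.7, 7.6 and 7.6 in Prlr-/- NP islets. In Prlr+/+ islets it was at 8.4, 8.3 and 8.2 at P9.5, against 7.8, 7.6 and 7.6 in NP. Every P9.5 array was above every NP array, and the arrays of the 2 genotypes overlapped at each stage. The log2 fold change of pregnancy was 0.67 in Prlr-/- (SE 0.0969, limma adjusted p = 0.000566) and 0.63 in Prlr+/+ islets (SE 0.0969, limma adjusted p = 0.00136). Prlr-/- minus Prlr+/+ at P9.5 was 0.00 with a 95% interval of -0.21 to 0.21, and the difference between the 2 pregnancy changes was 0.03 (-0.27 to 0.33). The fold change stood close to the limit of 1.5. With quantile normalization of the deposited values it was 0.51 in Prlr-/- and 0.55 in Prlr+/+ islets, under the limit in both, and the call in Prlr+/+ islets was lost without Prlr+/+ P9.5 replicate 1 (0.58, limma adjusted p = 0.00754; highest adjusted p over the alternatives 0.0133).

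The promoter of Got1 is shown because this was the only gene of the module called. The 250 bases before its start, from RefSeq on GRCm38.p6, lie at chr19:43524606-43524855 on the minus strand and are given 5′ to 3′, with the letters TTGCATCA in capitals. These are the reverse complement of TGATGCAA, which is of the form TGATGNAA, the core of the element to which ATF4 binds together with C/EBP proteins in known targets.
Got1: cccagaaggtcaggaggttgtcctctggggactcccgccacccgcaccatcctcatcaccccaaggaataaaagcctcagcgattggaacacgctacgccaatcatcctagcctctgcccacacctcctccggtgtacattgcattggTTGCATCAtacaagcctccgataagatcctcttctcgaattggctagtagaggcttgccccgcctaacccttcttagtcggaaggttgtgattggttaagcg
The match began 102 bases before the start.

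TGATGNAA was searched on both strands in windows of 250 bases before to 50 after each RefSeq start. Of the 35 genes, 29 had a window in the table and 8 of these held a match (27.6%), against 4.51% of all 27025 genes in the table. Known ATF4 targets are on the list by choice, so the higher share is not a result of these data. The other measured genes with a match were Trib3, Chac1, Vldlr, Asns, Slc7a11 and Slc1a4, and the unmeasured Pycr1 also had one. Their matches are shown with 11 bases on each side, in the direction of the gene and with the match in capitals, so that the spacing and the middle letter can be compared.
Trib3, chr2:152344028-152344057: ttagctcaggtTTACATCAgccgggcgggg
Chac1, chr2:119351038-119351067: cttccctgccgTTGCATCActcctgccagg
Vldlr, chr19:27216809-27216838: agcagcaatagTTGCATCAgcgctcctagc
Asns, chr6:7693214-7693243: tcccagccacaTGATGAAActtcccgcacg
Slc7a11, chr3:50443661-50443690: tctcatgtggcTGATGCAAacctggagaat
Slc7a11, chr3:50443642-50443671: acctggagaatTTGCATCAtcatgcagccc
Slc1a4, chr11:20332699-20332728: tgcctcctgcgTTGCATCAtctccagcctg
The match in Trib3 began 15 bases after the start and the others before it, at 193 (Chac1), 200 (the second start of Vldlr), 23 (Asns), 66 and 47 (Slc7a11) and 4 bases (Slc1a4). Chac1 and Vldlr lie on the plus strand and the other genes on the minus strand.

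The 7 measured genes with a match did not move together in pregnancy. Their log2 fold changes ran between -0.13 and 0.67 in Prlr-/- islets (median 0.10) and between -0.47 and 0.63 in Prlr+/+ islets (median -0.37). The 21 measured genes with a window and no match had values between -0.57 and 0.53 in Prlr-/- islets (median 0.13) and between -0.37 and 0.50 in Prlr+/+ islets (median 0.07). A match in the letters is not a measured binding site.

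Among the 10 stress factors and regulators, Atf4 was higher in pregnancy without reaching a fold change of 1.5. It was at 8.2, 8.3 and 8.5 in Prlr-/- P9.5 islets, against 7.7, 7.8 and 7.9 in Prlr-/- NP islets. In Prlr+/+ islets it was at 8.3, 8 and 8.2 at P9.5, against 7.6, 7.7 and 7.7 in NP. No P9.5 array reached down to the NP arrays of its genotype. The log2 fold change was 0.53 in Prlr-/- (limma adjusted p = 0.00391) and 0.50 in Prlr+/+ islets (limma adjusted p = 0.00808).

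Cebpg encodes the C/EBP protein that pairs with ATF4. It was at 7.7, 7.7 and 7.9 in Prlr-/- P9.5 islets, against 7.3, 7.4 and 7.3 in NP, and at 7.8, 7.8 and 7.7 in Prlr+/+ P9.5 islets, against 7.3, 7.3 and 7.5 in NP. The groups again did not overlap, with log2 fold changes of 0.43 in Prlr-/- (limma adjusted p = 0.00539) and 0.40 in Prlr+/+ islets (limma adjusted p = 0.0117).

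The remaining stress genes did not follow Atf4. Trib3, a pseudokinase induced by ATF4 that restrains it in turn, was at 6.4, 6.5 and 6.8 in Prlr-/- P9.5 islets, against 6.7, 6.7 and 6.5 in NP, a difference of -0.07 on the log2 scale. In Prlr+/+ islets Trib3 was at 6.3, 6.1 and 6.5 at P9.5, against 6.6, 6.8 and 6.9 in NP (log2 fold change -0.47, limma adjusted p = 0.0318). Atf5, a factor related to Atf4, was at 7.4, 7.4 and 7.5 in Prlr-/- P9.5 islets, against 8, 7.8 and 7.9 in NP (log2 fold change -0.47, limma adjusted p = 0.0199), and its log2 fold change in Prlr+/+ pregnancy was -0.37 (limma adjusted p = 0.0704). The arrays of the stages did not overlap for Trib3 in Prlr+/+ or for Atf5 in Prlr-/- islets. Ddit3, which encodes the factor CHOP of prolonged stress, had log2 fold changes of 0.13 in Prlr-/- and 0.27 in Prlr+/+ pregnancy, neither past the test. Cebpb, the glutathione-degrading enzyme Chac1, the leucine sensor Sesn2, the translation repressor Eif4ebp1 and the lipoprotein receptor Vldlr had log2 fold changes between -0.13 and 0.13 in Prlr-/- and between -0.47 and -0.10 in Prlr+/+ pregnancy, and none of these passed the adjusted p.

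**Figure D2:**
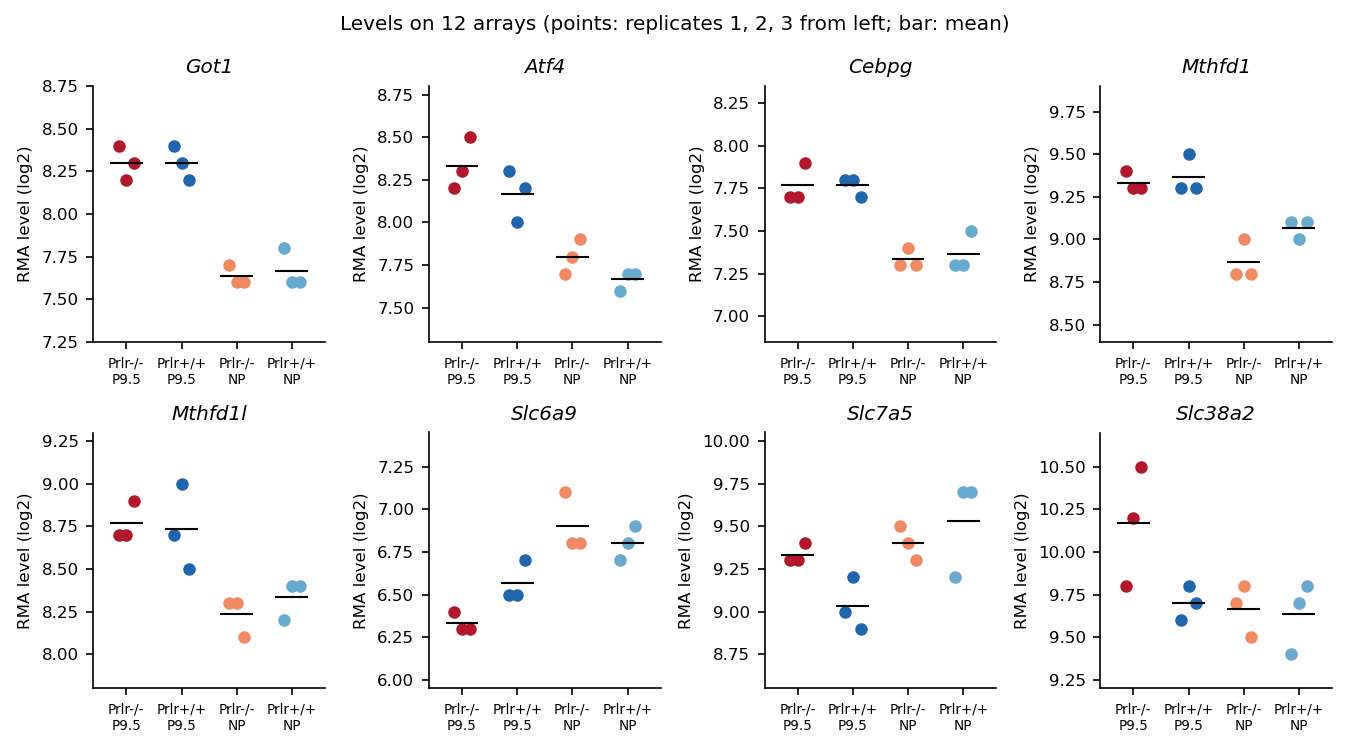
RMA levels (log2) of 8 genes on the 12 arrays, with 1 panel per gene, points for replicates 1 to 3 from left to right and bars for group means; each vertical axis spans the same width but not the same levels. Got1, Atf4, Cebpg, Mthfd1 and Mthfd1l are higher on P9.5 than on NP arrays of both genotypes, Slc6a9 is lowest on the Prlr-/- P9.5 arrays, and Slc38a2 is spread between 9.8 and 10.5 in that group.

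Among the 9 serine and one-carbon enzymes, Mthfd1 and Mthfd1l were higher at an adjusted p under 0.05 in both genotypes. Mthfd1, the cytosolic enzyme that interconverts folate one-carbon units, was at 9.4, 9.3 and 9.3 in Prlr-/- P9.5 islets, against 8.8, 9 and 8.8 in NP. In Prlr+/+ islets it was at 9.3, 9.5 and 9.3 at P9.5, against 9.1, 9 and 9.1 in NP. The stages did not overlap in either genotype, and the log2 fold change was 0.47 in Prlr-/- (limma adjusted p = 0.00364) and 0.30 in Prlr+/+ islets (limma adjusted p = 0.042).

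Mthfd1l, which releases formate from mitochondria, was at 8.7, 8.7 and 8.9 in Prlr-/- P9.5 islets, against 8.3, 8.3 and 8.1 in NP. In Prlr+/+ islets it was at 8.7, 9 and 8.5 at P9.5, against 8.2, 8.4 and 8.4 in NP, and replicate 2 was the highest. The log2 fold change was 0.53 in Prlr-/- (limma adjusted p = 0.0096) and 0.40 in Prlr+/+ islets (limma adjusted p = 0.0478). Without Prlr+/+ P9.5 replicate 2, the array with low Xist, the value in Prlr+/+ islets was 0.27 (limma adjusted p = 0.176).

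Of the 3 enzymes that make serine, Psat1 (phosphoserine aminotransferase) was at 6.6, 6.6 and 6.8 in Prlr-/- P9.5 islets, against 6.5, 6.3 and 6.2 in NP, and at 6.5, 6.3 and 6.6 in Prlr+/+ P9.5 islets, against 6.2, 6.1 and 6.1 in NP. The arrays did not overlap, and Psat1 had a log2 fold change of 0.33 in both genotypes, past the test in Prlr-/- islets (limma adjusted p = 0.0387) and not in Prlr+/+ islets (limma adjusted p = 0.0527). Phgdh, the first and committing enzyme, was spread widely, at 6.6, 6.6 and 7 in Prlr-/- P9.5 islets against 7.4, 6.7 and 7.4 in NP. In Prlr+/+ islets Phgdh was at 6.8, 6.4 and 6.5 at P9.5 against 6.5, 7 and 7.1 in NP, and the groups overlapped in both genotypes. The phosphatase Psph, the serine hydroxymethyltransferases Shmt1 (cytosolic) and Shmt2 (mitochondrial), the mitochondrial folate enzymes Mthfd2 and Aldh1l2 and Phgdh had log2 fold changes between -0.43 and 0.17 in Prlr-/- and between -0.30 and 0.30 in Prlr+/+ pregnancy, none past the test. Of the 9 enzymes in this role, 3 in Prlr-/- and 2 in Prlr+/+ islets were higher at an adjusted p under 0.05. At the adjusted or the unadjusted limma p, 0 were lower. Over all probe sets, 15.6% were higher and 17.7% lower at that adjusted p in Prlr-/- pregnancy. In Prlr+/+ pregnancy these shares were 11.5% and 10.3%. At the unadjusted limma p, 24.8% (Prlr-/-) and 18.9% (Prlr+/+) of all probe sets were lower.

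Besides Got1, the amino acid enzymes had small differences. Asns, the asparagine synthetase that serves as a common readout of ATF4, was at 10.3, 10.1 and 10.4 in Prlr-/- P9.5 islets, against 10, 10 and 10.2 in NP. In Prlr+/+ islets Asns was at 10.1, 10.1 and 10 at P9.5, against 9.7, 9.9 and 10 in NP. The arrays touched or overlapped in both genotypes, and its log2 fold change of 0.20 in each (95% interval -0.04 to 0.44) was not past the test. Aldh18a1 of proline synthesis, the mitochondrial alanine aminotransferase Gpt2 and the transsulfuration enzymes Cth and Cbs had values between -0.20 and 0.17 in Prlr-/- and between -0.30 and 0.30 in Prlr+/+ pregnancy, none past the adjusted p.

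Of the 9 amino acid transporters, 1 was higher and 1 lower at an adjusted p under 0.05 in Prlr-/- pregnancy (15.6% and 17.7% of all probe sets). In Prlr+/+ pregnancy 0 were higher and 2 lower (11.5% and 10.3% of all probe sets). Slc6a9, a glycine transporter, was at 6.4, 6.3 and 6.3 in Prlr-/- P9.5 islets, against 7.1, 6.8 and 6.8 in NP, without overlap (log2 fold change -0.57, limma adjusted p = 0.00258). In Prlr+/+ islets Slc6a9 was at 6.5, 6.5 and 6.7 at P9.5, against 6.7, 6.8 and 6.9 in NP (log2 fold change -0.23, limma adjusted p = 0.144). The difference between the genotypes' changes was -0.33 (95% interval -0.67 to 0.00, limma adjusted p = 0.504).

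Slc7a5, the large neutral amino acid transporter that works as a pair with Slc3a2, was at 9.3, 9.3 and 9.4 in Prlr-/- P9.5 islets, against 9.5, 9.4 and 9.3 in NP. In Prlr+/+ islets Slc7a5 was at 9, 9.2 and 8.9 at P9.5, against 9.2, 9.7 and 9.7 in NP, with Prlr+/+ NP replicate 1 as low as the highest P9.5 array. Its log2 fold change was -0.07 in Prlr-/- and -0.50 in Prlr+/+ islets (limma adjusted p = 0.0236), and in Prlr+/+ islets it was -0.67 and called lower without NP replicate 1 (limma adjusted p = 0.00251). Slc7a3, a cationic amino acid transporter, was at 5.3, 5.2 and 5.7 in Prlr+/+ P9.5 islets, against 6, 5.8 and 5.7 in NP. It was lower in Prlr+/+ pregnancy at a log2 fold change of -0.43 (limma adjusted p = 0.0329), with -0.30 in Prlr-/- pregnancy (limma adjusted p = 0.0932).

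Slc38a2, the transporter of small neutral amino acids induced by their shortage, was at 9.8, 10.2 and 10.5 in Prlr-/- P9.5 islets, against 9.7, 9.8 and 9.5 in NP. In Prlr+/+ islets Slc38a2 was at 9.6, 9.8 and 9.7 at P9.5, against 9.4, 9.7 and 9.8 in NP. The high arrays were replicates 2 and 3 of the Prlr-/- P9.5 group, with a log2 fold change of 0.50 in Prlr-/- (limma adjusted p = 0.0391) and 0.07 in Prlr+/+ pregnancy (limma adjusted p = 0.812). Without Prlr-/- P9.5 replicate 3 the value was 0.33 (limma adjusted p = 0.156). The other transporters were the arginine and lysine carrier Slc7a1, the cystine carrier Slc7a11, the heavy chain Slc3a2 and the neutral amino acid carriers Slc1a4 and Slc1a5. Their log2 fold changes lay between -0.23 and 0.17 in Prlr-/- and between -0.37 and 0.07 in Prlr+/+ pregnancy, none past the adjusted p.

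In both genotypes 5 genes were higher at an adjusted p under 0.05, namely Atf4, Cebpg, Mthfd1, Mthfd1l and Got1, and 0 were lower in both. The share of all probe sets past this test in both genotypes was not counted, so these numbers have no background beside them. Under the alternatives run, only Got1 and Atf4 stayed past that test in both genotypes. The highest limma adjusted p in Prlr+/+ pregnancy was 0.203 for Mthfd1, 0.192 for Mthfd1l and 0.0505 for Cebpg. In Prlr-/- pregnancy it was 0.057 for Mthfd1l. Each genotype had its own NP arrays, but all contrasts shared 1 estimate of the spread. Genes past the test in 1 genotype alone were Atf5, Psat1, Slc38a2 and Slc6a9 in Prlr-/- islets and Trib3, Slc7a3 and Slc7a5 in Prlr+/+ islets. Of these 7, only Slc6a9 stayed past the test under all alternatives (highest limma adjusted p 0.015), and the others reached 0.0902 (Slc7a5) to 0.173 (Slc38a2). None of these 7 showed a difference between the 2 pregnancy changes past the test, so they are not shown to differ between genotypes.

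Arrays of whole islets also held RNA of exocrine cells, and fewer cells of a type and less RNA per cell cannot be told apart in them. Of 15 acinar genes, which make digestive enzymes or control them, 8 were called lower and 1 higher in Prlr-/- pregnancy. In Prlr+/+ pregnancy 0 were called lower and 1 higher. Over all probe sets 7.09% were called lower and 7.44% higher in Prlr-/- pregnancy, and 4.21% and 5.73% in Prlr+/+ pregnancy. The mean level of the 15 was 9.09 to 10.61 in Prlr-/- P9.5 islets, against 10.43 to 11.31 in Prlr-/- NP islets, and 9.49 to 10.63 in Prlr+/+ P9.5 islets, against 10.11 to 10.67 in Prlr+/+ NP islets. The mean of 5 ductal genes was 6.02 to 6.16 in Prlr-/- P9.5 against 6.34 to 6.62 in Prlr-/- NP islets, and 5.96 to 6.02 in Prlr+/+ P9.5 against 6.32 to 6.38 in Prlr+/+ NP islets. The mean of 8 beta cell genes was between 10.7 and 10.97 on all arrays. None of the 8 was called in Prlr-/- pregnancy, and 2 were called lower in Prlr+/+ pregnancy, the beta cell transcription factors Mafa (log2 fold change -0.67) and Nkx6-1 (-0.73), while G6pc2, a glucose-6-phosphatase of beta cells, had a log2 fold change of 0.57 there. The mean of 7 endothelial genes was 7.9 to 8.03 in Prlr-/- P9.5 against 7.69 to 7.74 in Prlr-/- NP islets. In Prlr+/+ islets this mean was 7.7 to 8.01 at P9.5 against 7.89 to 8 in NP. The endothelial genes called were Tek, higher in Prlr-/- pregnancy (log2 fold change 0.63), and Plvap, lower in Prlr+/+ pregnancy (-0.67). Of 6 immune genes, only Cd74 was called, lower in Prlr+/+ pregnancy (-0.77). The part of these other genes in the values of the module was not tested.

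The genotypes were compared at P9.5, where loss of the receptor and the progesterone pellet cannot be told apart. None of the 34 genes was called, where 0.231% of all probe sets were called in either direction, and the smallest limma adjusted p was 0.582 (Slc3a2). The unadjusted limma p was under 0.05 for 5 genes, all higher in Prlr-/- islets (Chac1, Sesn2, Mthfd2, Slc3a2 and Slc38a2), and for 0 lower, where it was for 2.79% of all probe sets higher and 2.63% lower. Of the 34 differences, 24 were above 0, 7 below and 3 at 0, with a median of 0.13 against 0 over all probe sets, and they ran from -0.23 to 0.47. Endothelial and other endocrine marker genes also lay on the positive side. Of the endothelial genes, 7 of 7 were above 0 (median 0.13, list mean 7.9 to 8.03 in Prlr-/- P9.5 islets, against 7.7 to 8.01 in Prlr+/+ P9.5 islets). Of 7 genes of the other endocrine cells, 6 were above 0 and 0 below (median 0.20, list mean 11.41 to 11.49 in Prlr-/- P9.5 islets, against 11.11 to 11.29 in Prlr+/+ P9.5 islets). None of these 14 was called. Other lists of cell type markers did not share this side. Differences ran from -0.17 to -0.03 for the 6 immune genes and from -0.40 to 0.07 for the 15 acinar genes. They lay on both sides of 0 for beta cell (-0.43 to 0.17), ductal (-0.23 to 0.37) and stromal genes (-0.20 to 0.13). The part of any marker list in the module's differences was not tested. Arrays of Prlr-/- islets lay above all arrays of Prlr+/+ islets for 4 genes (Chac1, Sesn2, Slc7a5 and Slc3a2) and below them for Slc6a9 alone, where 3.16% and 2.91% of all probe sets did so. The 95% intervals of single genes reached between -0.59 and 0.83, so that changes past 1.5-fold were not excluded for every gene.

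Slc3a2 was at 10.5, 10.4 and 10.5 in Prlr-/- P9.5 islets, against 10.2, 10.2 and 10.2 in Prlr+/+ P9.5 islets. Sesn2 was at 7.7, 7.6 and 7.7 in Prlr-/- P9.5 islets, against 7.4, 7.5 and 7.3 in Prlr+/+ P9.5 islets. Both differences were 0.27, with 95% intervals of 0.08 to 0.45 for Slc3a2 and 0.08 to 0.46 for Sesn2, and neither passed the adjusted p (0.582 and 0.615, limma). They were named after their values were seen.

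Chac1 was at 7.3, 7.3 and 7.8 in Prlr-/- P9.5 islets, against 7.2, 6.9 and 7 in Prlr+/+ P9.5 islets (log2 fold change 0.43, 95% interval 0.03 to 0.83, limma adjusted p = 0.861). Slc38a2 had the largest difference, 0.47 (95% interval 0.10 to 0.83, limma adjusted p = 0.728). Without Prlr-/- P9.5 replicate 3 these differences were 0.27 for Chac1 and 0.30 for Slc38a2. Mthfd2 was at 8.4, 8.2 and 8.5 in Prlr-/- P9.5 islets, against 8, 8 and 8.2 in Prlr+/+ P9.5 islets (0.30, limma adjusted p = 0.892), and the same difference of 0.30 was found in NP islets. Cth was at 5.8, 5.2 and 5.2 in Prlr-/- P9.5 islets, against 5.2, 5 and 5.2 in Prlr+/+ P9.5 islets (0.27, limma adjusted p = 0.977), where replicate 1 of the Prlr-/- group held the difference.

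**Figure D3:**
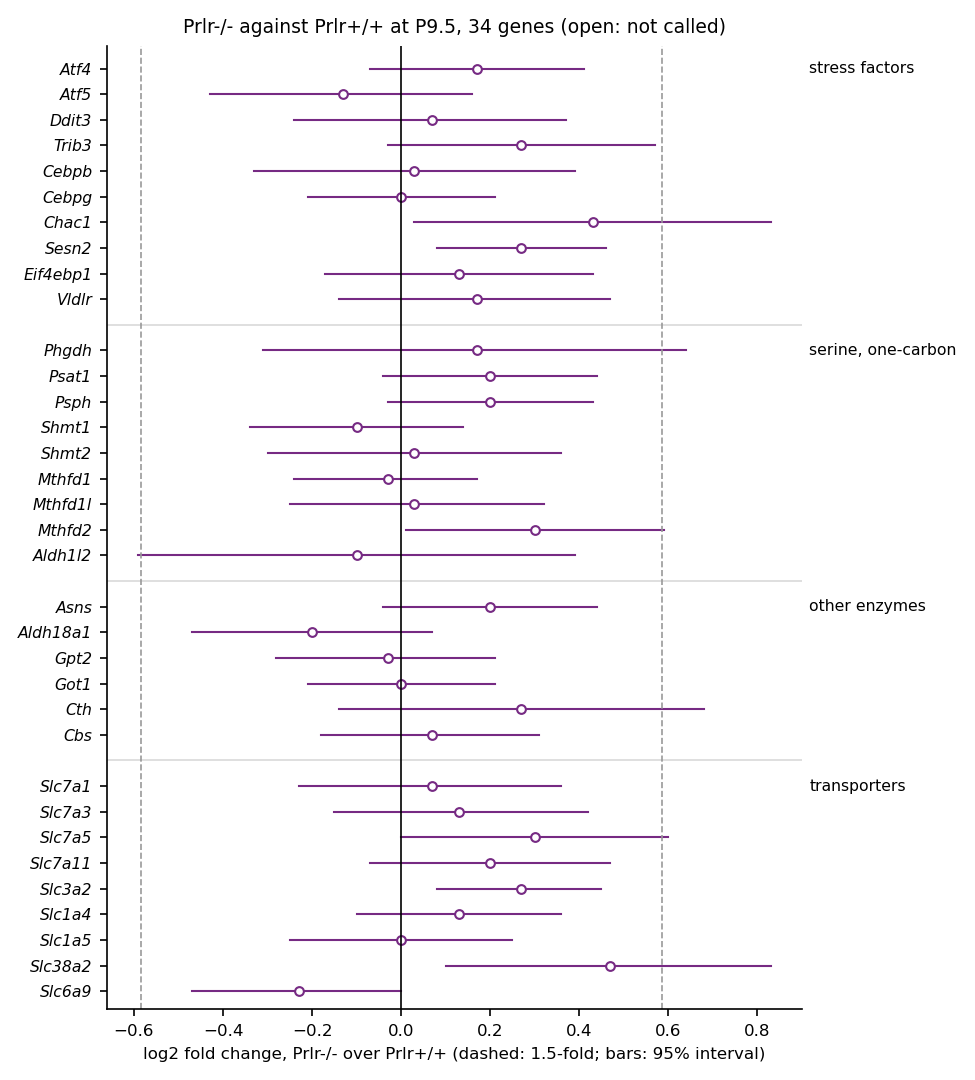
Log2 fold change of Prlr-/- over Prlr+/+ islets at P9.5 for the 34 genes by role, with 95% intervals of the limma fit as bars and the 1.5-fold limits dashed; open points were not called. No point passes the test, 24 of the 34 points lie right of 0, and Slc38a2 and Chac1 lie farthest right at 0.47 and 0.43.

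One array was high for many of these genes. Prlr-/- P9.5 replicate 3 held the highest value of its group for 21 of the 34 genes (61.8%, ties left out), against 29.3% of all probe sets. Its mean over the 34 genes was 7.62, against 7.51 and 7.44 on the other arrays of the group and 7.39 to 7.42 on the Prlr+/+ P9.5 arrays. The same array had the lowest mean of the 15 acinar genes, 9.09, and whether these go together was not tested. In the Prlr+/+ NP group, replicate 3 held the highest value for 15 of the 34 genes (44.1%, against 23.7% of all probe sets).

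In NP islets, 0 of the 34 genes were called between Prlr-/- and Prlr+/+ islets, where 0.101% of all probe sets were called. The unadjusted limma p was under 0.05 for 2 genes higher and 3 lower (7.14% and 5.19% of all probe sets). The differences ran from -0.33 to 0.30 with a median of 0.03, against 0 over all probe sets. Cbs was at 8.9, 8.6 and 8.6 in Prlr-/- NP islets, against 9, 9.1 and 9 in Prlr+/+ NP islets, and Slc7a11 at 4.2, 4.2 and 4.1 in Prlr-/- NP islets, against 4.4, 4.5 and 4.5 in Prlr+/+ NP islets. These arrays did not overlap, but the differences of -0.33 and -0.30 did not pass the adjusted p (0.269 and 0.348, limma).

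The interaction, the pregnancy change in Prlr-/- minus that in Prlr+/+ islets, called 0 of the 34 genes, where 0.0788% of all probe sets were called. The unadjusted limma p was under 0.05 for 4 genes, all positive (Vldlr 0.50, Slc7a11 0.50, Slc7a5 0.43 and Cbs 0.40), and for 0 negative, where it was for 4.26% of all probe sets positive and 5.59% negative. The smallest adjusted p was 0.385 for Slc7a11, and the median interaction was 0.03, against 0 over all probe sets.

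Other genes of the same pathways were taken from 5 further lists, of which the cytosolic tRNA synthetases held the most calls. These enzymes charge tRNA with amino acids, and several are known ATF4 targets. Of 17 measured, 6 were called higher in Prlr-/- and 7 in Prlr+/+ pregnancy, and 0 lower, against the 7.44% and 5.73% of all probe sets given above. At an adjusted p under 0.05 and any fold, 12 were higher and 1 lower in each genotype. Over all probe sets the shares at that test were 15.6% and 17.7% in Prlr-/- and 11.5% and 10.3% in Prlr+/+ pregnancy. Of the synthetases, 5 were called higher in both genotypes, and the share of all probe sets called in both was not counted. The median log2 fold change was 0.50 in Prlr-/- and 0.43 in Prlr+/+ islets.

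Leucyl-tRNA synthetase, Lars1, was at 9.3, 9.3 and 9.2 in Prlr-/- P9.5 islets, against 8.6, 8.4 and 8.4 in NP. In Prlr+/+ islets Lars1 was at 9.5, 9.6 and 9.5 at P9.5, against 8.6, 8.7 and 8.9 in NP, with a log2 fold change of 0.80 in each genotype (limma adjusted p = 0.000258 in Prlr-/- and 0.000589 in Prlr+/+ islets). Arginyl-tRNA synthetase, Rars1, was at 9.5, 9.5 and 9.4 in Prlr-/- P9.5 islets against 8.6 on each NP array, and at 9.5, 9.6 and 9.4 in Prlr+/+ P9.5 islets against 8.9, 8.5 and 8.7 in NP. The stages were far apart in both genes and both genotypes.

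Farsb, a subunit of phenylalanyl-tRNA synthetase, had log2 fold changes of 0.90 in Prlr-/- and 0.73 in Prlr+/+ pregnancy, Hars1 0.73 and 0.77, and Qars1 0.77 and 0.67 in the same order. Tars1 was called in Prlr+/+ islets at 0.90, and had 0.47 in Prlr-/- islets. Of the others, Vars1, named after its values were seen, was the gene lower at an adjusted p under 0.05, at -0.27 in Prlr-/- (limma adjusted p = 0.0449) and -0.43 in Prlr+/+ islets (limma adjusted p = 0.00711). Cars1 (-0.20 in Prlr-/- and -0.07 in Prlr+/+ islets), Mars1 (0.03 and 0.00) and Gars1 in Prlr+/+ islets (-0.10) were not past the test. Between genotypes, 0 of the 17 were called at P9.5, in NP or in the interaction. The unadjusted limma p at P9.5 was under 0.05 for 0 higher and 2 lower (2.79% and 2.63% of all probe sets). The list mean was 8.74 to 8.89 in Prlr-/- P9.5 islets, against 8.33 to 8.42 in Prlr-/- NP islets, and 8.79 to 8.91 in Prlr+/+ P9.5 islets, against 8.41 to 8.49 in Prlr+/+ NP islets.

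**Figure D4:**
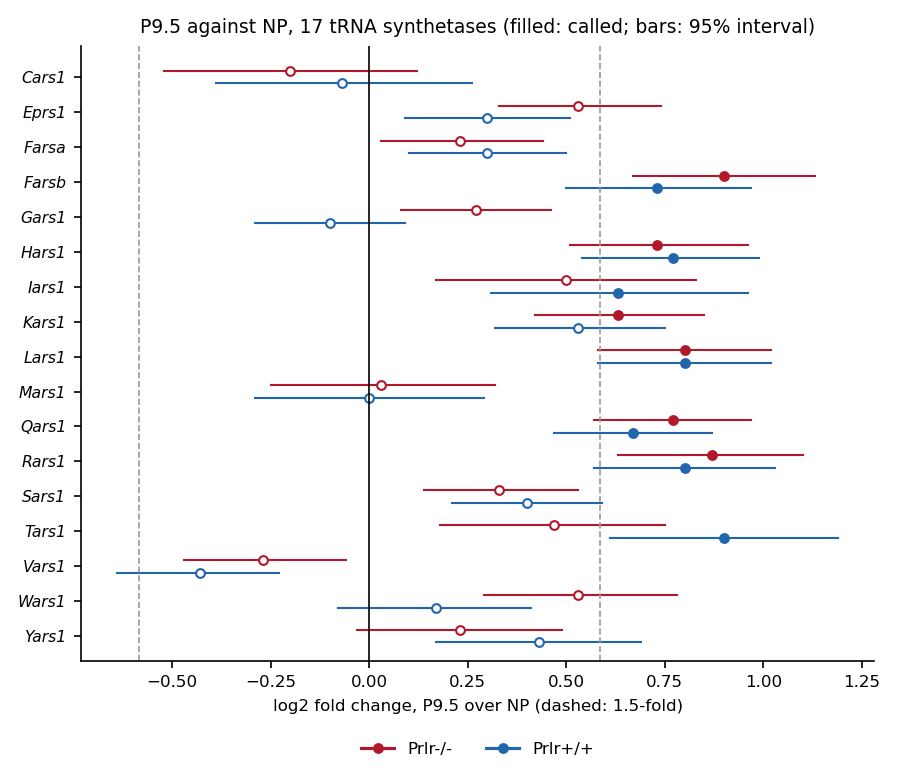
Log2 fold change of P9.5 over NP for 17 cytosolic tRNA synthetases in Prlr-/- (red, upper) and Prlr+/+ islets (blue, lower), with 95% intervals of the limma fit as bars and the 1.5-fold limits dashed; filled points were called. The called genes lie between 0.63 and 0.90, and Vars1 and Cars1 lie left of 0 in both genotypes.

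Of 14 regulators of the integrated stress response, 2 were called higher in each genotype and 0 lower, numbers within about 1 gene of the 7.44% (Prlr-/-) and 5.73% (Prlr+/+) of all probe sets called higher. Eif2ak2, the kinase PKR, was called in both, at 0.83 in Prlr-/- and 0.70 in Prlr+/+ pregnancy. Eif2ak3, the kinase PERK, was at 8.9, 8.7 and 9.1 in Prlr-/- P9.5 islets, against 8.1, 8 and 8.1 in NP, and was called there (0.83, limma adjusted p = 0.000748). In Prlr+/+ islets Eif2ak3 was at 8.8, 8.9 and 8.6 at P9.5, against 8.2, 8.2 and 8.5 in NP (0.47, limma adjusted p = 0.0227). Nupr1, a stress-induced chromatin protein, was called in Prlr+/+ pregnancy at 1.00 and had 0.07 in Prlr-/- pregnancy. The interaction for Nupr1 was -0.93 with a limma adjusted p of 0.406. With both P9.5 replicates 2 left out, 1 regulator was called higher in Prlr+/+ pregnancy.

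Of 16 other folate and methionine genes, 2 were called higher and 1 lower in each genotype, close to the shares of all probe sets (7.44% and 7.09% in Prlr-/-, 5.73% and 4.21% in Prlr+/+). The number called lower in Prlr-/- pregnancy was 2 without Prlr-/- P9.5 replicate 1. Dld, the lipoamide dehydrogenase shared by the glycine cleavage system and mitochondrial dehydrogenases, was at 9, 8.7 and 8.9 in Prlr-/- P9.5 islets, against 7.8 on each NP array, and at 9.1, 8.9 and 8.9 in Prlr+/+ P9.5 islets, against 8, 7.8 and 7.8 in NP (log2 fold changes 1.07 and 1.10). Slc19a1, the reduced folate carrier, was at 6.3, 6.5 and 6.5 in Prlr-/- P9.5 islets, against 7.7, 7.5 and 7.6 in NP, and at 6.3, 6.5 and 6.9 in Prlr+/+ P9.5 islets, against 7.1, 7.6 and 7.3 in NP. Its log2 fold change was -1.17 in Prlr-/- and -0.77 in Prlr+/+ islets, both called. Slc25a32, the mitochondrial folate carrier, was called in Prlr-/- pregnancy at 1.03 and had 0.40 in Prlr+/+ pregnancy.

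Gcsh, the H protein of the glycine cleavage system, was the only one of these 16 genes called between genotypes at P9.5. Over all probe sets 0.231% were called there, and genotype and pellet cannot be told apart. Gcsh was at 5.7, 5.9 and 5.5 in Prlr-/- P9.5 islets, against 6.6, 6.6 and 6.4 in Prlr+/+ P9.5 islets. In Prlr-/- NP islets it was at 5.5, 5.5 and 5.7, against 5.7, 5.6 and 5.4 in Prlr+/+ NP islets. Only the Prlr+/+ P9.5 arrays were high, with a log2 fold change of pregnancy of 0.13 in Prlr-/- and 0.97 in Prlr+/+ islets. Prlr-/- minus Prlr+/+ at P9.5 was -0.83 (95% interval -1.11 to -0.56, limma adjusted p = 0.0169), while the interaction of -0.83 was not past the test (limma adjusted p = 0.142). The genotype call rested on most of the arrays, since leaving out replicate 1 or 3 of the Prlr-/- P9.5 group, replicate 1 or 2 of the Prlr+/+ P9.5 group, or replicate 2 of both, ended it.

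Of 20 other amino acid transporters, 2 were called higher and 1 lower in Prlr-/- pregnancy, and 0 higher and 1 lower in Prlr+/+ pregnancy, near the same shares of all probe sets. In Prlr-/- islets these were the glutamine transporter Slc38a5 (0.77), the neutral amino acid exchanger Slc7a8 (0.70) and the glutamine transporter Slc38a3 (-0.67), and in Prlr+/+ islets the neutral amino acid transporter Slc43a2 (-0.70). None of these 4 passed the test of the interaction, with Slc7a8 lowest at a limma adjusted p of 0.107, but with array weights 1 of the 20 was called positive. The unadjusted limma p of the interaction was under 0.05 for 7 of the 20, all positive (4.26% of all probe sets positive and 5.59% negative). That of genotype at P9.5 was under 0.05 for 5 higher and 0 lower (2.79% and 2.63% of all probe sets). In Prlr-/- pregnancy 1 was called higher when P9.5 replicate 1 or 3 or NP replicate 2 was left out, and 0 lower when P9.5 replicate 3, NP replicate 1 or both P9.5 replicates 2 were. The call of Slc38a3 was also lost with median centring, quantile normalization and array weights, and quantile normalization left 1 called higher. In Prlr+/+ pregnancy 2 were called lower when NP replicate 1 was left out, and with array weights. Of 14 other amino acid and glutathione enzymes, Oat, the ornithine aminotransferase, was the only one called, at 1.07 in Prlr-/- and 0.63 in Prlr+/+ pregnancy. Calls for 1 of 14 genes are near the 7.44% (Prlr-/-) and 5.73% (Prlr+/+) of all probe sets called higher. In Prlr+/+ islets the call of Oat needed P9.5 replicate 1 and NP replicates 2 and 3.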

How the data were processed

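RNA of collagenase-isolated islets was hybridised to MoGene_1.0_ST arrays (Affymetrix), 12 in all. Per the methods, the authors processed the raw arrays by RMA in aroma.affymetrix, and the deposited values are log2 levels, 1 per probe set, rounded to 0.1. Raw arrays were not used here, so that background correction and quantile normalization are part of every value, and the number of arrays limits the precision. Whether an array held RNA of 1 or several mice is not given in the sources used here.

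All 35511 probe sets were fitted in limma 3.58.1 (R 4.3.3) with 4 group means and eBayes, and tested for pregnancy in each genotype, genotype at each stage and the interaction. A call needed a fold change of at least 1.5 and an adjusted p under 0.05. An exact permutation test of 3 against 3 arrays cannot give a two-sided p under 0.1, so none was run. The fit was tested on simulated data. The annotation named 1 gene for 21789 probe sets, several for 1621 and none for 12101. Names of 81 of 94 genes on the further pathway lists and 62 of 66 marker genes matched. The annotation carries older symbols for tRNA synthetases, which were updated through Entrez identifiers to RefSeq names. Promoters came from RefSeq (GRCm38.p6).

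Members and lists were chosen with earlier results of these data known. Array values were given for genes called or with the largest change of their role in Prlr+/+ pregnancy or between genotypes at P9.5, and for others past the adjusted p or discussed beside them. From the further lists, called genes were named, at most 6 a list by size of change. Alternatives were other scaling (median centring, quantile normalization), the replicate number as a block, leaving out single arrays, only the groups compared, a filter on the dimmest 40% of probe sets, a trended and robust prior, array weights, other fold limits and added noise of up to 0.05. Leaving out both P9.5 replicates 2 was chosen after seeing the data.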

Additional observations from a re-analysis of the deposited data

How the results depend on the processing

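No called result changed sign under any alternative run. In Prlr-/- pregnancy the number of module genes called higher (1) was 6 with median centring, 0 with quantile normalization, 7 with no fold change minimum and 0 with a fold change of at least 2, and 1 to 3 when single arrays were left out (3 without Prlr-/- P9.5 replicate 1). The number called lower (0) was 1 with quantile normalization, 2 with no fold change minimum, and 0 to 2 with single arrays left out (2 without Prlr-/- NP replicate 2, 1 without Prlr-/- P9.5 replicate 1 or NP replicate 3). In Prlr+/+ pregnancy the number called higher (1) was 0 with quantile normalization, 5 with no fold change minimum and 0 with a fold change of at least 2, and 0 to 1 with single arrays left out (0 without Prlr+/+ P9.5 replicate 1). The number called lower (0) was 1 with quantile normalization, 3 with no fold change minimum, and 0 to 2 with single arrays left out (2 without Prlr+/+ NP replicate 1). Between genotypes and in the interaction 0 genes were called under all alternatives. With the replicate number as a block 1 gene was called higher in each pregnancy contrast, and the block changed no other call; at any fold it gave 3 higher and 5 lower in Prlr+/+ pregnancy. Deviations of arrays with the same replicate number correlated at -0.114 to 0.227, over 0.1 in 7 of 18 pairs, so the numbers were not taken as pairs. At an adjusted p under 0.05 and any fold, the counts ranged from 5 to 9 higher and 1 to 4 lower in Prlr-/- and from 3 to 6 higher and 0 to 7 lower in Prlr+/+ pregnancy.

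Median centring raised the median of all probe sets by 0.17 in Prlr-/- and 0.07 in Prlr+/+ pregnancy. It gave 4835 higher and 1510 lower calls over all probe sets in Prlr-/- pregnancy, against 2641 and 2518 as deposited, and 2634 and 1117 in Prlr+/+ pregnancy, against 2034 and 1494. The 5 genes added in Prlr-/- pregnancy were Atf4 (0.70), Cebpg (0.60), Mthfd1 (0.63), Mthfd1l (0.70) and Slc38a2 (0.67), and tRNA synthetases called higher there were 10 in place of 6. Averaging a gene's probe sets changed nothing, since each gene had 1. The Gcsh difference between genotypes was also lost when only the 2 groups were fitted.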
